A study of Mus musculus with 4 samples.

Results

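The 10 genes described here encode the MHC class I chains B2m, H2-D1, H2-K1 and H2-T23, the peptide transporter subunit Tap1, the class I transactivator Nlrc5, the class II chains H2-Aa and H2-Ab1, the invariant chain Cd74 and the class II transactivator Ciita. They were taken by symbol from the gene list of the count matrices, 10 of 32285 genes, and all 10 symbols matched 1 row each. The rule itself used no measured value, but the genes were chosen with earlier results of these data known. The matrices came from sorted cortical nuclei of Gclc-KO mice sequenced one nucleus at a time, and in these mice a floxed allele of Gclc, the catalytic subunit of the enzyme that limits glutathione synthesis, is recombined by Cre under the CaMKII promoter, which is active in forebrain excitatory neurons. There were 4 libraries, 2 from mice of 3 months (3M-1 and 3M-2) and 2 from mice of 6 months (6M-1 and 6M-2), and the labels put the libraries numbered 1 in batch 1 and those numbered 2 in batch 2. Wherever 4 values are given in a row, they are the libraries by age and then by number. The floxed line has a C57BL/6NTac background, every library carried the deletion, and no animal without it was analysed here, so each comparison of ages was made among knockout mice and age and the course of the deletion cannot be told apart. Cortical pieces rich in rod-shaped microglia were dissected, and DAPI-positive nuclei were sorted, so shares of nuclei do not stand for the whole cortex.

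MHC class I molecules are heavy chains, such as H2-D1 and H2-K1, held at the cell surface by beta-2-microglobulin, the product of B2m, and they show peptides from the cell interior to CD8+ T cells. The peptides are made by the proteasome and pumped into the endoplasmic reticulum by a transporter of which Tap1 is a subunit, and H2-T23 encodes Qa-1, a class I-like chain read mainly by receptors of natural killer and T cells. MHC class II molecules, such as the pair of H2-Aa and H2-Ab1, show peptides from endosomes to CD4+ T cells, and Cd74 fills their groove until loading. Nlrc5 and Ciita belong to the NLR family and act on the class I and class II genes through a shared promoter module, and both are inducible by interferons. In the healthy brain, neurons and macroglia hold little of either class, and microglia gain both classes when activated.

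Of the members, B2m (ENSMUSG00000060802) lies on chromosome 2 at 122147686-122153083, Nlrc5 (ENSMUSG00000074151) on chromosome 8 at 94434356-94527272 and Ciita (ENSMUSG00000022504) on chromosome 16 at 10480059-10528418 in GRCm38, the build that mm10 names. In the H2 complex on chromosome 17 lie H2-K1 at 33996017-34000347, Tap1 at 34187553-34197225, H2-Ab1 at 34257689-34269419, H2-Aa at 34282744-34287823, H2-D1 at 35262730-35267499 and H2-T23 at 36029773-36032855. All 10 members are protein-coding. A gene on the opposite strand overlaps B2m (Patl2), H2-T23 (A930015D03Rik), Tap1 (Psmb9), Nlrc5 (9330175E14Rik) and Ciita (Dexi), and whether the counting used strand was not given in the sources used here, so reads of such pairs may not be told apart. H2-D1 and H2-K1 are related to each other and to other H2 genes. Their transcripts were not compared here, and how reads were split among them is uncertain.

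The promoter sequences are shown because Nlrc5 and Ciita act through bases that members share. RefSeq promoters on GRCm38.p6 were matched for 6 of 10 members, and the 250 bases before the transcription start were searched on both strands for the letters CCAAT (the Y box core), TGACG (as in the X2 box), TTCNNNGAA (a gamma-activated site), an interferon-stimulated response element and an NF-kB site. Capitals mark the matches, and for H2-K1 the first of 2 listed starts was used.
B2m, chr2:122147437-122147686, plus strand: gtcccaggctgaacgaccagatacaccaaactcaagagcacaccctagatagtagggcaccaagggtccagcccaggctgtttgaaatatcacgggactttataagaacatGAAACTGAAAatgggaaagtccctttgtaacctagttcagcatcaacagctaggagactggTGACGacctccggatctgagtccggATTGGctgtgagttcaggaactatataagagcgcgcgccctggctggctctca
H2-K1, chr17:34000348-34000597, minus strand: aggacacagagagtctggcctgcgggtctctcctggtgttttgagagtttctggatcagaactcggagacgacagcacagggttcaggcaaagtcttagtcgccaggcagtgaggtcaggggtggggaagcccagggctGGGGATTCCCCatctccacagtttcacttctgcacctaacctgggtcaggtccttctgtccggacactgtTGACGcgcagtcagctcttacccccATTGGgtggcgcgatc
H2-Aa, chr17:34287824-34288073, minus strand: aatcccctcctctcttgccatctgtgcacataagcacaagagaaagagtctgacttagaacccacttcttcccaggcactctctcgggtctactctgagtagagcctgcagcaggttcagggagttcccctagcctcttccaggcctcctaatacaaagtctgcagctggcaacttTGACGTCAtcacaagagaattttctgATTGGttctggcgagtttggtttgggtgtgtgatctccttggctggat
H2-D1, chr17:35262914-35262943, plus strand, 30 bases only: cccagggctGGGGATTCCCCatctcctcag
CCAAT or its reverse ATTGG was found in all 6 promoters, against 33.9% of 32841 promoters searched. TGACG was found in those of B2m, H2-D1, H2-K1, Tap1 and H2-Aa, against 17.8% of all promoters. In B2m, H2-D1 and H2-K1 the first base of ATTGG lay 25 bases after the first base of TGACG, and in H2-Aa it lay 26 bases after it. This pair at 25 or 26 bases, looked for after the matches had been seen, was held by 50 of the 32841 promoters (0.152%). The NF-kB site was found in H2-D1 and H2-K1 and in 15 promoters in all (0.0457%), at the same 70 bases before TGACG in both, and the 30 bases shown for H2-D1 are equal to those of H2-K1 at 29 positions. The interferon-stimulated response element was found in B2m, where it reads GAAACTGAAA, and in H2-T23, against 2.98% of promoters. It was searched as a fixed pattern of letters, and other forms of it were not looked for. The search therefore does not show that H2-D1, H2-K1, Tap1 and H2-Aa lack such an element. TTCNNNGAA was found in none of the 6 promoters, against 7.02%. TGACG can overlap its own reverse, as it does in H2-Aa. A match describes these letters and is not a measured binding site.

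Each deposited library held 6836 to 8789 nuclei, and 30515 of 30784 nuclei were kept, with 59262228 to 65894316 UMIs per library and a median of 5994 to 8140 UMIs per nucleus. A barcode also found in another library was carried by 186 nuclei. A nucleus was given a cell type from marker genes, none of which is a member, and 21495 of the 30515 nuclei (70.4%) were gated. Of the rest, 1009 had too few markers and 8011 had markers of more than 1 type. The gate held 10973 excitatory neurons, 3015 inhibitory neurons, 4448 oligodendrocytes, 650 oligodendrocyte precursors, 159 astrocytes and 2117 microglia, and small sets of border macrophages, T cells, endothelial cells, mural cells and fibroblasts. Levels are given as CPM, which scales the UMIs of a gene to the same total in every type and library. The summed microglial markers were at 9973 to 14686 CPM within gated microglia and at 63.3 to 185 CPM within the other 5 main types. Gclc was counted at 41.4, 32.9, 34.9 and 35.8 CPM in the excitatory neurons, and these tags at the end of the gene, without a library that lacks the deletion, do not check it.

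Microglia held 1.85% of all UMIs but 35.2% of the 1750 UMIs of B2m, 43.2% of the 1460 of H2-K1, 43.0% of the 244 of Tap1, 42.8% of the 795 of Nlrc5 and 21.1% of the 2337 of H2-D1, with a lower share, 9.26% of 983, for H2-T23. Excitatory neurons, the most numerous gated type, held more than microglia did of H2-T23 (46.5%) and of H2-D1 (31.1%). Ciita was placed otherwise: microglia held 0.833% of its 2281 UMIs and excitatory neurons 45.9%. The excitatory neurons also held 29912490 of the 63194878 kept UMIs in 3M-1 and 32712773 of 62574289 in 3M-2. In 6M-1 they held 26182615 of 65894316, and in 6M-2 25200035 of 59262228. Their shares of H2-T23, H2-D1 and Ciita therefore do not show a concentration in these neurons. Between 28.9% and 37.2% of each member's UMIs fell in nuclei that were not gated.

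UMIs were summed per library and type and compared between types in 1 edgeR fit with the library as a block, over 14582 genes. B2m, H2-D1, H2-K1 and Nlrc5 were higher in microglia than in each of the 5 other types. The background is high in such a comparison, since the share of genes called higher in microglia was 27.0% against oligodendrocytes, 26.9% against oligodendrocyte precursors, 23.1% against astrocytes, 36.4% against excitatory neurons and 36.1% against inhibitory neurons. Against oligodendrocytes, precursors and both neuron classes, 6 of the 7 members tested were called higher in microglia, and against astrocytes 4 of 7. Tap1 and H2-T23 needed the microglial sums to pass the filter on low counts, so their calls add nothing to these counts. Of the other genes of the class I pathway, 27 of 28 tested were called higher in microglia than in excitatory neurons, and of the class II pathway 11 of 12. The class II list also holds Cd274 and genes of the interferon-gamma receptor, which do not themselves present peptides. The class I count was lower against the other types, at 25 for oligodendrocytes, 23 for precursors, 17 for astrocytes and 25 for inhibitory neurons. The class II count was 12 against astrocytes and 11 against each of the others.

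**Figure D1:**
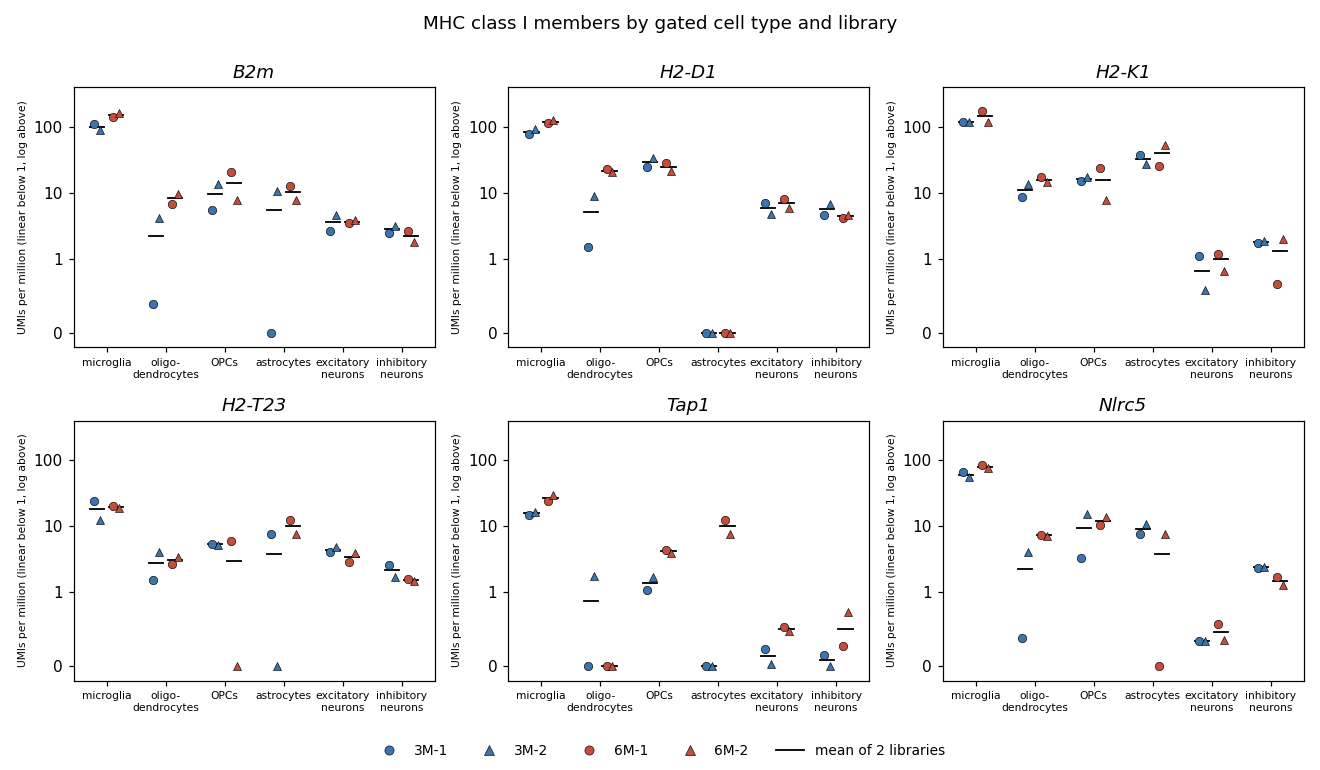
Class I members in the 6 main gated types, in CPM of that type and library, on an axis that is linear below 1 and logarithmic above. Points are libraries and black lines the mean of the 2 libraries of an age; microglia stand above the other types for B2m (126.7 ± 32.0 CPM, SD, n = 4) and H2-D1 has no UMI in astrocytes.

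B2m, whose product every classical class I molecule needs, was counted in microglia at 113, 90.0, 141 and 163 CPM. The mean of 126.7 ± 32.0 (SD, n = 4) was followed by oligodendrocyte precursors at 12.0 ± 6.87 (SD, n = 4), and the difference was 3.22 on the log2 scale (SE 0.31, adjusted p = 3.8e-10, edgeR). Below that step, precursors, astrocytes, oligodendrocytes and excitatory neurons could not be told from their neighbours in the order (adjusted p from 0.19 to 0.92, edgeR), and excitatory neurons stood 0.74 above inhibitory neurons (SE 0.29, adjusted p = 0.036). Types further apart did differ. Precursors stood 1.39 above excitatory neurons (SE 0.44, adjusted p = 0.0087), and oligodendrocytes stood 1.18 above inhibitory neurons (SE 0.38, adjusted p = 0.0070). Astrocytes were not called against either neuron class.

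H2-K1, a classical heavy chain, was counted in microglia at 117, 118, 173 and 118 CPM, and astrocytes came second at 38.1, 27.3, 25.3 and 54.4. The difference between these types was 1.73 on the log2 scale (SE 0.34, adjusted p = 1.2e-04, edgeR). Oligodendrocytes, at 13.6 ± 3.56 CPM (SD, n = 4), stood 3.24 above inhibitory neurons (SE 0.28, adjusted p = 2.1e-11), so both neuron classes were low. The values of excitatory neurons, 0.58 to 1.18 CPM, were below what the microglial markers found in the same neurons would bring at the ratio seen in microglia, 0.58 to 2.20 CPM, in 3 of 4 libraries. In inhibitory neurons H2-K1 was at 1.76, 1.88, 0.67 and 2.03 CPM against 0.70, 1.37, 2.44 and 1.43 at that ratio, and so above it in 3 of 4. Here and below, this ratio is not an upper limit, and the part of microglial transcripts in the counts was not tested.

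H2-D1, the other classical heavy chain, was counted in microglia at 77.9, 92.7, 116 and 126 CPM. Oligodendrocyte precursors were second at 25.2, 34.5, 28.3 and 21.4, a difference of 1.68 on the log2 scale (SE 0.33, adjusted p = 9.9e-05, edgeR). Astrocytes had 0 UMIs of H2-D1 in 521758 UMIs over the 4 libraries, which allows up to 5.75 CPM, so that microglia were at least 18.5-fold higher over the group. The same astrocytes held 19 UMIs of H2-K1. How reads of either gene of this related pair were assigned may bear on both values and was not tested. In neurons H2-D1 was counted above what the microglial markers there would bring at the ratio in microglia, with 4.80 to 8.06 CPM in excitatory neurons against 0.38 to 1.48.

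Nlrc5 was counted in microglia at 66.7, 55.4, 84.6 and 75.5 CPM, 2.63 above oligodendrocyte precursors on the log2 scale (SE 0.34, adjusted p = 1.1e-07, edgeR) and 6.92 above excitatory neurons (SE 0.27, adjusted p = 2.0e-19). Inhibitory neurons held more of it than excitatory neurons, by 2.03 (SE 0.40, adjusted p = 9.8e-05). The excitatory levels of 0.33, 0.34, 0.57 and 0.36 CPM stood beside 0.33, 0.52, 1.08 and 0.75 that the microglial markers in those neurons would bring. Tap1, the transporter subunit, was at 15.03, 16.6, 24.3 and 30.2 CPM in microglia and at 0.444 ± 0.889 in oligodendrocytes (SD, n = 4), which had 3 UMIs of it, all in 3M-2. H2-T23 was at 24.4, 12.5, 20.3 and 18.9 CPM in microglia and 1.82 lower in excitatory neurons on the log2 scale (SE 0.24, adjusted p = 8.7e-08, edgeR). For both genes the step from microglia to astrocytes missed the threshold (adjusted p = 0.070 for Tap1 and 0.073 for H2-T23, edgeR), where astrocytes gave 2 and 3 UMIs. Both genes needed the microglial sums to pass the filter on low counts.

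The age comparison asked whether these genes differed between 3 and 6 months within a cell type. In microglia no member was called, and neither was any of the 11619 genes tested (0.0%), while 412 genes were higher and 287 lower at an unadjusted p under 0.05 by edgeR. DESeq2 also called no member. All 7 members tested had a positive difference with a median of 0.51 on the log2 scale, against 0.01 over all genes, and 3 of them had an unadjusted p under 0.05. Cd74, 1 of these 3, had 2, 3, 40 and 15 UMIs and passed the filter on low counts through the libraries of 6 months. Its positive sign therefore adds nothing to the count of 7, and it is described with class II. H2-Aa, H2-Ab1 and Ciita were too low to be tested.

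B2m was counted in microglia at 120, 65, 215 and 216 UMIs. Both libraries of 6 months were higher in CPM than both of 3 months, by 0.57 on the log2 scale (SE 0.21, adjusted p = 0.79, edgeR). Over the alternatives the B2m difference lay between 0.40 and 0.77, the latter without 3M-1, a fit that leaves 1 animal at 3 months. H2-D1, at 83, 67, 177 and 167 UMIs, was likewise higher in CPM in both libraries of 6 months, by 0.51 (SE 0.21, adjusted p = 0.81). Tap1 at 16, 12, 37 and 40 UMIs gave 0.78 (SE 0.35, adjusted p = 0.81) and Nlrc5 at 71, 40, 129 and 100 UMIs gave 0.38 (SE 0.22, adjusted p = 0.85), again without overlap of the ages. Here and below, the share of all tested genes whose ages lay apart in this way is not given. Such a separation alone therefore does not show a change with age. For H2-K1, at 125, 85, 264 and 157 UMIs, the high library was 6M-1 alone, and the difference was 0.31 (SE 0.24, adjusted p = 0.88). H2-T23 differed by 0.03 (SE 0.41, adjusted p = 1.00) and changed sign with the gate margin and with the libraries used. Of the other class I pathway genes, 26 of 34 were tested, none was called and their median was 0.06. The median depth of the microglia was 2220 and 1500 UMIs per nucleus at 3 months and 1721 and 2040 at 6 months.

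**Figure D2:**
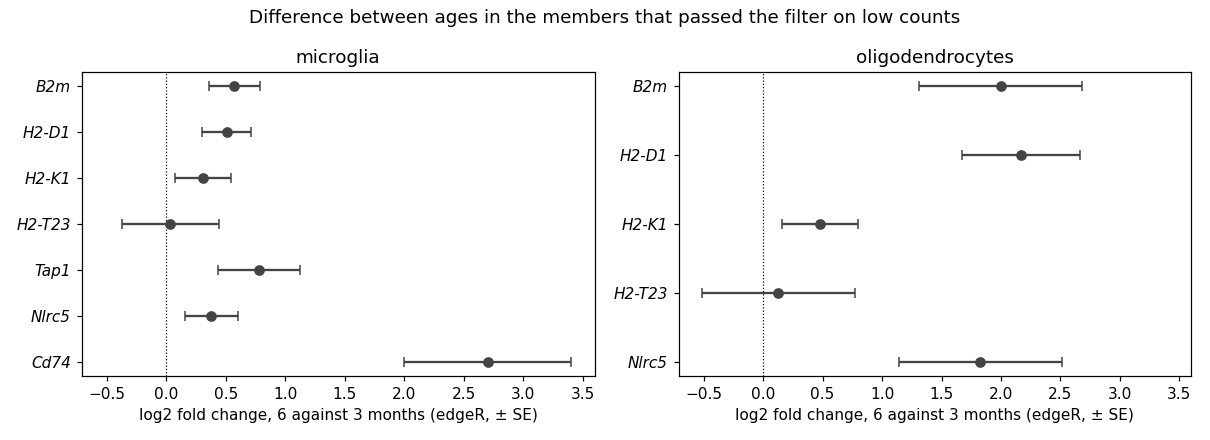
Log2 fold change of 6 against 3 months with its standard error, from the edgeR fit over all genes, for the members that passed the filter on low counts in microglia (7 members) and in oligodendrocytes (5 members). Points to the right of the dotted line are higher at 6 months; no member had an adjusted p under 0.05, and H2-T23 is the member whose sign changed with the settings in both types.

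In oligodendrocytes, the myelinating cells, H2-D1 was counted at 4, 15, 87 and 66 UMIs, that is 1.53, 8.89, 23.2 and 20.8 CPM. Both libraries of 6 months were above both of 3 months, and the 2 libraries of 3 months themselves lay apart. The difference was 2.17 on the log2 scale (SE 0.49, adjusted p = 0.20, edgeR), in a comparison that called 4 of 12862 genes (0.0311%), 3 higher (0.0233%) and 1 lower (0.00777%), and no member. With the batch number of the labels as a replicate block, H2-D1 was called at 2.21 (SE 0.44, adjusted p = 0.0051) among 57 genes called. A crossed block, which pairs libraries of unlike number, called more genes than this block did. The gain in calls is therefore not particular to the batch number. H2-D1 was also called with no filter on low counts (2.17, adjusted p = 2.3e-05, edgeR). Not every other alternative called it. Without 3M-2 the difference was 3.66, without 6M-2 2.23 and without 3M-1, the library with the fewest UMIs of H2-D1, 1.28. The last of these was not called, and each such fit leaves 1 animal at an age.

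B2m at 1, 7, 26 and 31 UMIs and Nlrc5 at 1, 7, 28 and 23 UMIs in oligodendrocytes had the same arrangement of libraries. Their differences were 2.00 (SE 0.68, adjusted p = 0.55) and 1.83 (SE 0.69, adjusted p = 0.62) on the log2 scale in edgeR. Without 3M-1 they were 0.96 (adjusted p = 0.80) and 0.79 (adjusted p = 0.83), and without 3M-2 they were 4.16 (adjusted p = 0.056) and 3.99 (adjusted p = 0.066). H2-K1 at 23, 23, 65 and 47 UMIs differed less, by 0.48 (SE 0.32, adjusted p = 0.81), and H2-T23 by 0.13 (SE 0.64, adjusted p = 0.98) with a sign that depended on the libraries used. The median over the 5 members tested was 1.83, against 0.01 over all genes and 0.18 over 17 other class I pathway genes. H2-D1, B2m and Nlrc5 needed the libraries of 6 months to pass the filter on low counts, so this median does not test a shared rise. Microglial markers were also higher at 6 months within oligodendrocytes, with all 12 markers detected and their sum at 85.3 and 91.8 CPM at 3 months against 122 and 113 at 6 months. At the ratio found in microglia these would bring 0.45, 0.80, 1.42 and 1.37 CPM of H2-D1, below the measured value in each of the 4 libraries. For B2m they would bring 0.65, 0.77, 1.73 and 1.77 CPM, against measured values of 0.38, 4.15, 6.92 and 9.75. That ratio is not an upper limit, and the part of microglial transcripts in these counts was not tested.

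Oligodendrocytes with a UMI of C4b or Serpina3n, which are reactive glial genes, made up 7.19% and 3.51% of the type at 3 months and 34.7% and 43.5% at 6 months. With those nuclei left out, a comparison added after the data were seen, H2-D1 was at 3, 15, 43 and 33 UMIs and differed by 1.88 on the log2 scale (SE 0.57, adjusted p = 0.44, edgeR). The block gave 1.97 (adjusted p = 0.030). In that comparison none of 12031 genes was called (0.0%), and 606 were higher and 312 lower at an unadjusted p under 0.05. As in all oligodendrocytes, H2-D1 and B2m needed counts from 6 months to pass the filter on low counts. Nlrc5 was not among the 3 members tested. Without 3M-2 H2-D1 differed by 3.67 and B2m by 3.90, and without 3M-1 by 0.94 and 0.80. Each of these fits leaves 1 animal at an age. Within libraries, H2-D1 was at 5.43, 0, 33.5 and 23.5 CPM in the positive nuclei and at 1.24, 9.19, 17.6 and 18.6 in the others, where the positive nuclei of 3M-1 and 3M-2 numbered 62 and 30. The difference, 0.66 (SE 0.29, adjusted p = 0.48), was not called, nor were those of B2m and H2-K1, while 176 of 10863 genes were called (1.62%), 37 higher (0.341%) and 139 lower (1.28%).

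The change with age was not shown to differ between oligodendrocytes and microglia. In an added fit over both types, the H2-D1 difference was larger in oligodendrocytes by 1.69 on the log2 scale (SE 0.49, adjusted p = 0.74, edgeR), and none of 13391 genes was called (0.0%), with 389 higher and 384 lower at an unadjusted p under 0.05. H2-D1 was called without 3M-2 and with no filter on low counts.

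The other types gave no member called between ages. In oligodendrocyte precursors H2-D1 was at 25.2, 34.5, 28.3 and 21.4 CPM, so the ages overlapped and the difference was -0.20 (SE 0.40, adjusted p = 0.99, edgeR), and H2-K1 gave 0.05 (SE 0.57). None of 8926 genes was called there (0.0%), with 228 higher and 183 lower at an unadjusted p under 0.05. In excitatory neurons 7 members were tested, and Tap1 at 7, 1, 14 and 12 UMIs had the largest difference, 1.90 (SE 0.75, adjusted p = 0.88), where 1 of 18266 genes was called (0.00547%). Tap1 passed the filter on low counts there only through the libraries of 6 months, so its sign and its rank do not show a rise. Its levels of 0.23, 0.03, 0.53 and 0.48 CPM stood beside 0.07, 0.16, 0.31 and 0.30 at the ratio of the microglial markers. In inhibitory neurons all 6 members tested had a negative difference, from -0.62 for Nlrc5 to -0.25 for Ciita, with adjusted p of 0.97 or above by edgeR, and none of 14891 genes was called (0.0%), with 383 higher and 257 lower at an unadjusted p under 0.05. In astrocytes no member passed the filter on low counts. DESeq2 called no member in any of these types.

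After each nucleus was thinned to 1000 UMIs, a UMI of B2m, H2-D1 or H2-K1 was found in 24.4%, 26.6%, 37.1% and 32.6% of microglia. Their 95% limits by Wilson's method reached from 20.6 to 28.7 in 3M-1, from 21.9 to 31.8 in 3M-2, from 33.6 to 40.8 in 6M-1 and from 28.8 to 36.6 in 6M-2. Both shares at 6 months were above both at 3 months, by 9.36 percentage points on average, and the exact two-sided permutation p of 0.333 is the smallest that 2 against 2 libraries can give. Unthinned shares were 42.5%, 35.2%, 54.4% and 53.8%. In oligodendrocytes the thinned shares were 1.08%, 2.81%, 5.17% and 4.29%, a difference of 2.78 percentage points with the same p, and the unthinned ones 2.67%, 4.56%, 9.91% and 9.85%. Excitatory neurons, a type in which the classical class I genes are low, gave 1.11%, 1.02%, 1.40% and 0.939% thinned, from nuclei with a median of 7370 to 10905 UMIs against 1500 to 2220 in microglia and 1640 to 2828 in oligodendrocytes. The 1.08% of the 3M-1 oligodendrocytes lay within the range of the excitatory neurons. Oligodendrocyte precursors gave 4.57%, 4.29%, 11.8% and 4.07%. Thinning left out 28, 83, 30 and 6 shallower microglia and 30, 144, 35 and 19 oligodendrocytes. The intervals cover counting error only.

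**Figure D3:**
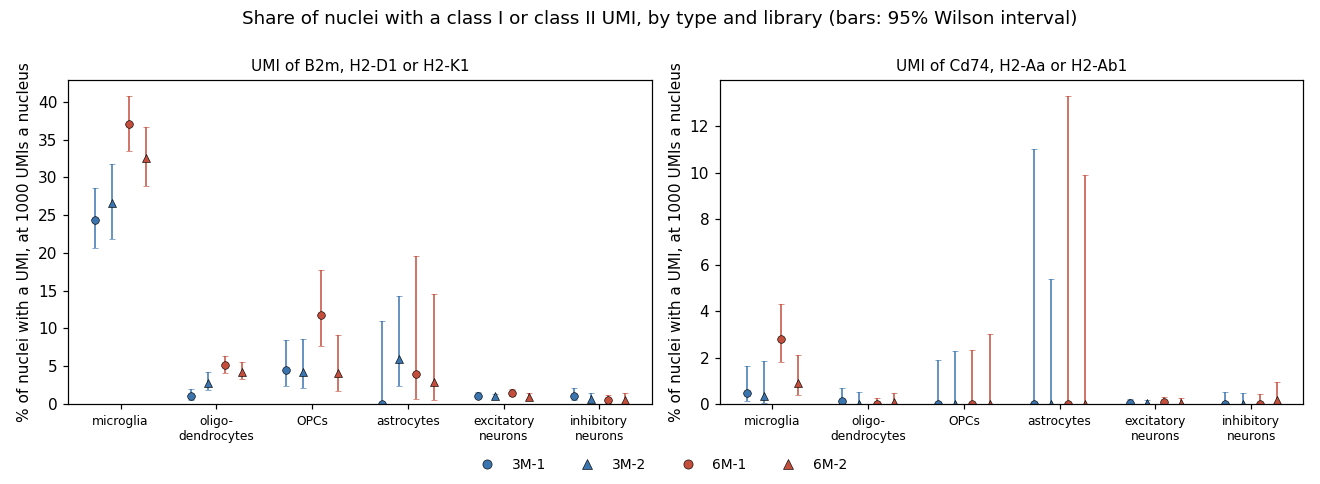
Percentage of nuclei with at least 1 UMI of B2m, H2-D1 or H2-K1 (left) and of Cd74, H2-Aa or H2-Ab1 (right) after thinning to 1000 UMIs, by type and library, with Wilson 95% intervals. Microglia lie between 24.4% and 37.1% on the left, and only the 6M-1 microglia exceed 2% on the right, at 2.80%; the wide intervals of astrocytes come from 25 to 67 nuclei per library.

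Microglia were then split by state, since the study's microglia include disease-associated (DAM) and interferon-responsive (IRM) forms. A microglial nucleus was DAM-gated with at least 4 of 15 DAM genes and IRM-gated with at least 4 of 18 interferon-response genes, and no member is in either list. There were 328 DAM-gated nuclei (86, 40, 125 and 77) and 242 IRM-gated ones (35, 36, 109 and 62), with 63 in both. These are cuts through a range, as 137 nuclei were at the DAM cut and 182 just below it, and 70 at the IRM cut and 131 just below it. Gated nuclei were deeper, at a median of 2444.5 against 1781 UMIs for DAM and 2064.5 against 1830 for IRM, and the share of depth in the results was not tested.

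In IRM-gated microglia Nlrc5 rose in every library. It was at 420, 238, 155 and 176 CPM there, against 33.9, 32.7, 66.7 and 59.5 in the other microglia of the same libraries, so the groups did not overlap. The difference was 2.17 on the log2 scale (SE 0.30, adjusted p = 9.0e-05, edgeR), and Nlrc5 was the 1 member among 120 of 8313 genes called higher (1.44%), with 11 lower (0.132%) and 131 in all (1.58%). It stayed called when each library was left out in turn (1.70 to 2.65) and with DAM-gated nuclei set aside on both sides, an added comparison (2.86, SE 0.38, adjusted p = 3.9e-05) that called 110 of 6984 genes (1.58%), 99 higher (1.42%) and 11 lower (0.158%).

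The class I chains were not called as a group in IRM-gated microglia, although their values were higher in most libraries. B2m was at 199, 201, 168 and 182 CPM against 105, 76.2, 134 and 160, higher in 4 of 4 libraries, with a difference of 0.60 (SE 0.21, adjusted p = 0.25, edgeR). H2-D1 was at 177, 238, 177 and 110 against 68.8, 74.7, 100 and 129, higher in 3 of 4, with 0.83 (SE 0.25, adjusted p = 0.13), and it was called without 6M-2 (1.19, adjusted p = 0.0072). Tap1 was at 44.3, 50.2, 45.1 and 44.1 against 12.3, 12.4, 18.9 and 28.0, higher in 4 of 4, with 1.27 (SE 0.38, adjusted p = 0.14). H2-K1 and H2-T23 gave 0.56 and 0.95 and were not called. The median over the 6 members tested was 0.89, against -0.01 over all genes and 0.55 over 22 other class I pathway genes. Tap1 and H2-T23 needed the IRM-gated sums to pass the filter on low counts, so this median does not test a shared rise.

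Genes called among those 22, each higher in IRM-gated microglia by edgeR, included Stat2, which carries the interferon signal to the nucleus, at 2.18 on the log2 scale (SE 0.21, adjusted p = 4.3e-07), and the class I-like genes H2-T24 at 1.14 (adjusted p = 0.020) and H2-T22 at 1.47 (adjusted p = 0.025). Stat2 is an interferon-response gene itself, although the gate did not use it. Of the genes listed with the class II pathway, 1 of 12 tested was called, against 1.58% of all genes. It was Cd274 at 1.55 (adjusted p = 0.023), which encodes the ligand PD-L1 and is not itself part of class II presentation.

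**Figure D4:**
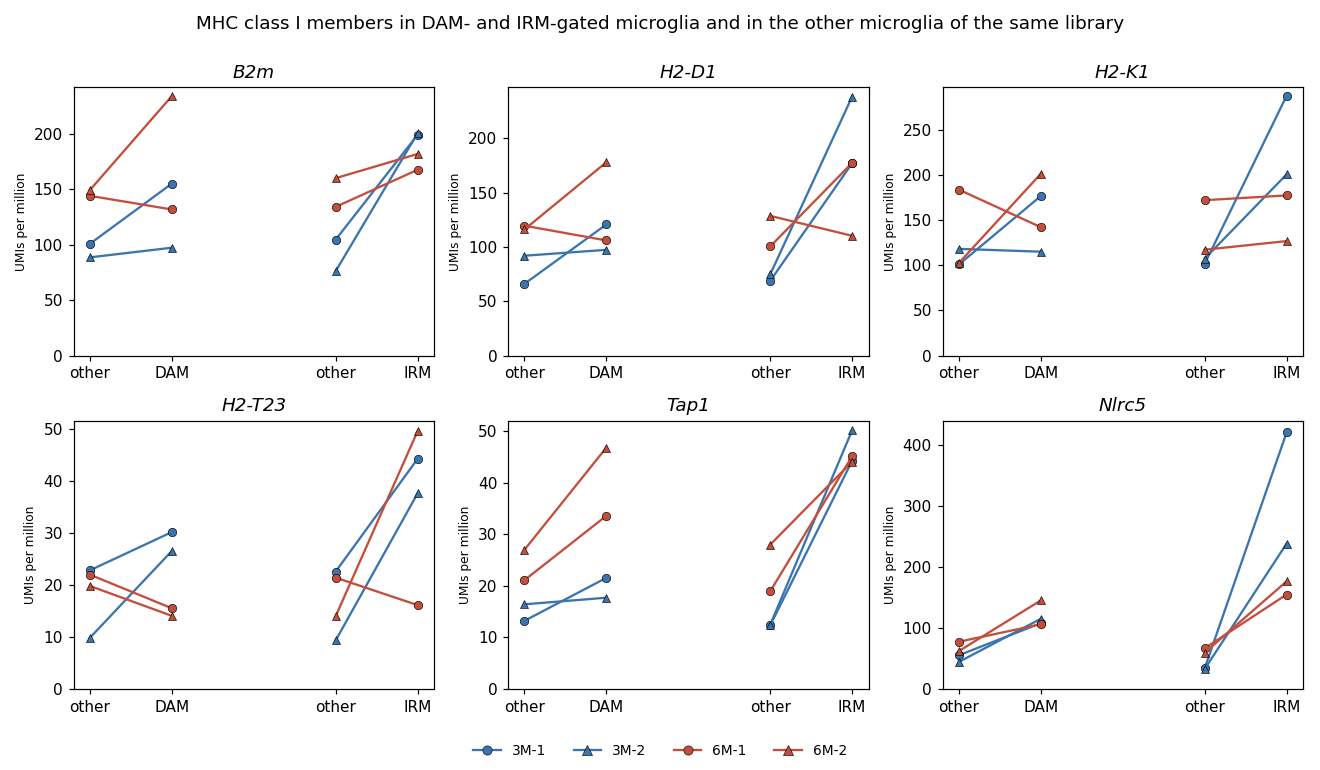
CPM of 6 class I members in DAM-gated and IRM-gated microglia, each joined by a line to the other microglia of the same library (blue 3 months, red 6 months, circle replicate 1, triangle replicate 2). The lines of Nlrc5 and Tap1 go up in 4 of 4 libraries for both states, and the IRM-gated Nlrc5 values of 420 and 238 at 3 months stand above those of 155 and 176 at 6 months.

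In DAM-gated microglia Nlrc5 was also the 1 member called. It was at 108, 115, 106 and 145 CPM against 55.2, 44.3, 77.3 and 62.1 in the other microglia, higher in 4 of 4 libraries with no overlap, and the difference was 0.95 on the log2 scale (SE 0.20, adjusted p = 0.015, edgeR), in a comparison that called 400 of 8318 genes (4.81%), 247 higher (2.97%) and 153 lower (1.84%). The call was lost with DESeq2 (adjusted p = 0.073), with the wider gate margin (0.79, adjusted p = 0.052) and without 3M-1 (0.92, adjusted p = 0.091), 3M-2 (0.85, adjusted p = 0.083) or 6M-2 (0.85, adjusted p = 0.10). With IRM-gated nuclei set aside on both sides it was 1.55 (SE 0.27, adjusted p = 0.0023), where 418 of 7374 genes were called (5.67%), 250 higher (3.39%) and 168 lower (2.28%). B2m, H2-D1 and H2-K1 gave 0.35, 0.36 and 0.36 and were not called, and 6M-1 went the other way for each of them, as did 3M-2 for H2-K1. Tap1 was higher in 4 of 4 libraries, at 21.5, 17.7, 33.6 and 46.8 CPM against 13.2, 16.4, 21.1 and 27.0, and was not called (0.67, SE 0.32, adjusted p = 0.34). Tap1 needed the DAM-gated sums to pass the filter on low counts. No gene's DAM difference was called as changing with age, among 9516 tested (0.0%) with 214 higher and 165 lower at an unadjusted p under 0.05.

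Of the genes listed with the class II pathway, 3 of 11 tested were called between DAM-gated and other microglia by edgeR, against 4.81% of all genes. Of these 3, Cd274 and Ifngr1 are not themselves part of class II presentation. Cd274 rose by 1.42 on the log2 scale (SE 0.28, adjusted p = 0.0094). Ifngr1, a chain of the interferon-gamma receptor, fell by 0.84 (SE 0.17, adjusted p = 0.011), and March1, a ubiquitin ligase that removes class II from the surface, fell by 0.70 (SE 0.14, adjusted p = 0.013).

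Microglia in neither state were also compared between ages, as an added comparison. Nlrc5 was at 15, 12, 53 and 47 UMIs there, or 19.1, 21.9, 54.6 and 48.1 CPM, so both libraries of 6 months were above both of 3 months. The difference was 1.32 on the log2 scale (SE 0.31, adjusted p = 0.39, edgeR), where 1 of 10551 genes was called (0.00948%). Over the alternatives it lay between 0.89 and 1.42. Nuclei just below the IRM cut numbered 23, 10, 60 and 38 of 466, 384, 709 and 558 microglia. Their part in this comparison and in the following one was not tested. Cd74 was not among the 6 members tested there with all 4 libraries. H2-D1 gave 0.70 (SE 0.23, adjusted p = 0.60) and B2m 0.65 (SE 0.22, adjusted p = 0.61).

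Whether the IRM-gated difference itself changed with age was tested in a further added fit, which called 87 of 9647 genes (0.902%), 68 higher (0.705%) and 19 lower (0.197%). Nlrc5 was the 1 member called, with a smaller IRM-gated difference at 6 months (-1.84 on the log2 scale, SE 0.41, adjusted p = 0.0049, edgeR), and all 7 members tested had a negative value. In the nuclei outside the gate Nlrc5 was at 33.9 and 32.7 CPM at 3 months and 66.7 and 59.5 at 6 months, and within it at 420 and 238 against 155 and 176. The call was lost with DESeq2, without the replicate block, with the wider gate margin, with a stricter state gate, without 3M-1 and without 6M-1.

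Class II transcripts were sparse. Cd74 (ENSMUSG00000024610) lies on chromosome 18. Over all kept nuclei there were 172 UMIs of Cd74, 34 of H2-Ab1 and 18 of H2-Aa, of which microglia held 60, 14 and 7. In microglia Cd74 was at 1.88 and 4.15 CPM at 3 months and 26.2 and 11.3 at 6 months, so the ages did not overlap and the 2 libraries of 6 months lay apart. The difference was 2.70 on the log2 scale (SE 0.70, adjusted p = 0.72, edgeR), and Cd74 was called with no filter on low counts (2.71, adjusted p = 0.0036) and without 3M-2 (3.26, adjusted p = 0.0096). Without 6M-1 the difference was 1.94 (adjusted p = 1.00). H2-Ab1 was at 1, 0, 7 and 6 UMIs, and the 7 UMIs of H2-Aa were all in 6M-1.

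The 81 class II UMIs of microglia lay in 53 nuclei, 3, 2, 30 and 18 per library. A single nucleus of 6M-1 held 9 of them, the top 5 nuclei held 27, and 4 nuclei had a UMI of at least 2 of the 3 genes. Cd74 was found in 40 nuclei, of which 14 were DAM-gated and 8 IRM-gated. After thinning to 1000 UMIs, 0.457%, 0.332%, 2.80% and 0.906% of microglia had a class II UMI, against 0.040% to 0.085% of excitatory neurons. The mean share was 1.46 percentage points higher at 6 months, with the same exact two-sided permutation p of 0.333, the smallest possible.

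Markers of other immune cells were looked for in the same microglia. Of 6 dendritic cell markers 3 were detected, with a sum of 31.0 and 23.5 CPM at 3 months and 40.0 and 41.5 at 6 months, and Xcr1, Ccr7 and Cd209a were at 0. Of 8 border macrophage markers 6 were detected, with a sum of 336 and 212 at 3 months and 178 and 205 at 6 months, and Lyve1 and Pf4 were at 0. Of 8 T cell markers 3 were detected, with a sum of 4.70 and 4.15 at 3 months and 13.8 and 6.04 at 6 months, and Cd3e and Cd3g were at 0. Of 4 neutrophil markers 2 were detected, Csf3r and Retnlg, with a sum of 886 and 597 at 3 months and 559 and 617 at 6 months, and S100a8 and S100a9 were at 0. Retnlg was also at 0 in DAM-gated and IRM-gated microglia, where Csf3r alone gave 512 to 1103 and 496 to 907 CPM. The sums of the dendritic cell and T cell markers were higher in both libraries of 6 months, as was Cd74, and the part of these cells in the Cd74 difference was not tested. The T cell sum was also at 4.21 to 13.6 CPM in oligodendrocytes and 17.3 to 42.8 in excitatory neurons, so its level is not particular to microglia.

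**Figure D5:**
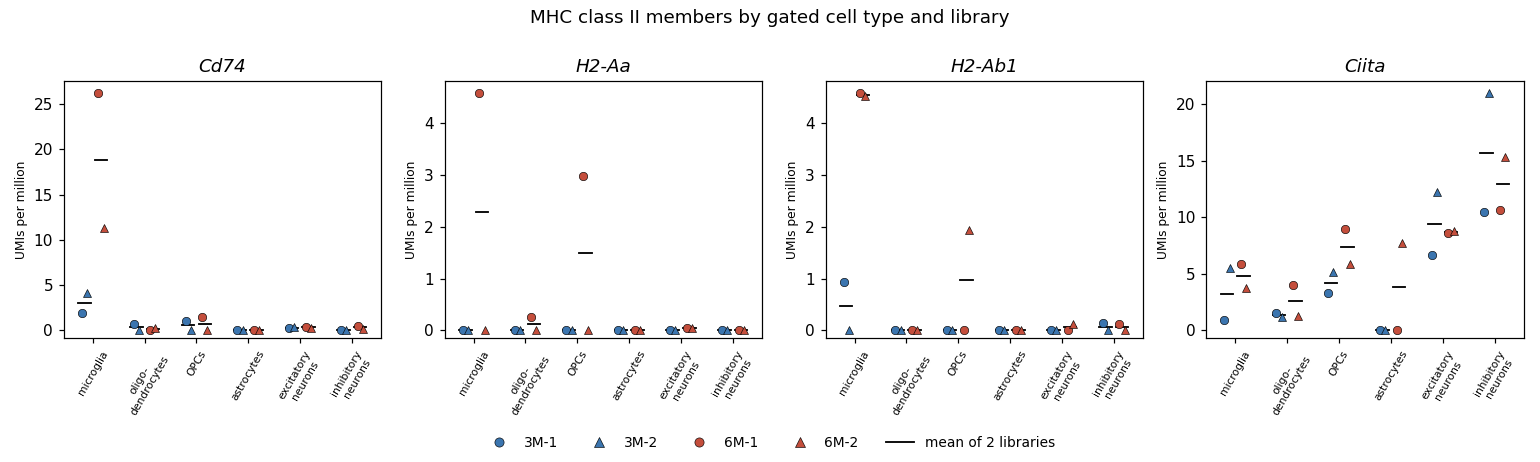
Cd74, H2-Aa, H2-Ab1 and Ciita in the 6 main gated types, in CPM of that type and library, with black lines for the mean of the 2 libraries of an age. Cd74 is highest in the microglia of 6M-1 at 26.2 CPM, and Ciita is highest in inhibitory neurons.

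Ciita, the transactivator of the class II genes, did not share their placement. It was at 10.4, 21.001, 10.7 and 15.3 CPM in inhibitory neurons, 6.65, 12.3, 8.63 and 8.81 in excitatory neurons and 0.94, 5.54, 5.90 and 3.77 in microglia. Microglia were lower than excitatory neurons by 1.60 on the log2 scale (SE 0.33, adjusted p = 8.9e-05, edgeR) and lower than inhibitory neurons by 2.03 (SE 0.33, adjusted p = 3.5e-06). In both neuron classes 3M-2 was the highest library and the ages overlapped, and the difference between ages was -0.14 in excitatory (SE 0.28, adjusted p = 0.96) and -0.25 in inhibitory neurons (SE 0.34, adjusted p = 0.98). Dexi overlaps Ciita on the other strand, and its part in these counts was not tested.

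A total of 17554 genes, listed genes included, had enough UMIs. Those outside the lists with the most similar levels were sought over 27 type and library sums. The measure was Pearson's r of log2 (CPM + 1), where sums of 1 library share depth and preparation. For the sum of B2m, H2-D1 and H2-K1 the most similar genes were Tln1 (0.93), Cflar (0.93), Clic1 (0.92), Morc3 (0.91) and Arhgef1 (0.91). For the sum of Cd74, H2-Aa and H2-Ab1 they were Gm15708 (0.89), A430093F15Rik (0.88), Cks2 (0.88), Tent5c (0.86) and Il1rl2 (0.86), and this sum rests on far fewer UMIs.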

How the data were processed

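Nuclei of cerebral cortex from 4 Gclc-KO mice were profiled with the 10x 3' chemistry, 1 mouse a library. The deposited counts are whole UMI counts per gene and nucleus, which the authors made with Cell Ranger 7.0.0 on mm10, and the submitters' notes also name Seurat. Of 32285 gene identifiers, 32158 were in GENCODE M21. The members, gene lists and markers were chosen with earlier results of these data known.

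Nuclei with at most 7000 genes and at most 1% mitochondrial UMIs were kept. Each nucleus was scored by the weighted share of each type's markers with a UMI and gated with at least 3 markers where the next type's share was at most 0.5 of the best. This scoring was set after the files were seen. No doublet caller was run, and the margin left out nuclei with markers of more than 1 type. UMIs were summed per library and type and tested with edgeR 4.0.16 (R 4.3.3), with its quasi-likelihood test, TMM scaling and filter on low counts, p-values adjusted by Benjamini and Hochberg's method over every gene tested and called at an adjusted p under 0.05. Types and states were compared with the library as a block and ages without one. Added tests and alternatives, DESeq2 1.42.0 among them, are named where they are used. Fits were tested on simulated data. Tables were handled in Python 3.11.15 with pandas 2.3.3 and scipy 1.17.1.

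The 10 members are always named, and up to 5 other pathway genes per comparison by smallest adjusted p among those called. The replicate number marks a shared batch in the labels. The deviations of same-numbered libraries from their age means correlated over genes at -0.044 in microglia, -0.120 in oligodendrocytes and -0.126 in excitatory neurons. Each library is 1 animal, so p-values rest on 2 animals an age. In bulk sums of a type, fewer nuclei with a transcript and less RNA per nucleus cannot be told apart, and intervals cover counting error only. Results that need an item withheld from this text are not reported here.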

Additional observations from a re-analysis of the deposited data

Results flagged for a closer look

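The difference of Nlrc5 between IRM-gated and other microglia was smaller at 6 than at 3 months, by -1.84 on the log2 scale (SE 0.41, adjusted p = 0.0049, edgeR), and this test of the difference between the ages singled it out. The IRM-gated difference of Nlrc5 was in the same direction, higher within the gate, in 4 of 4 libraries. The test was added after the data had been seen, and its call was lost under 6 of the 12 alternatives.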

How the results depend on the processing

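Over 520 repeats of the log2 fold change of a single member under an alternative, between ages in microglia and oligodendrocytes and between states, 485 kept direction and side of the threshold, 18 passed it newly, 5 no longer passed it and 12 changed sign. The comparisons between types, those between ages in the other types and the tests of a change with age are not among them. The 4 members higher in microglia than in each other type stayed 4 throughout. With no filter on low counts, the members called between ages became 1 in microglia, 2 in oligodendrocytes, 1 in oligodendrocytes without C4b or Serpina3n UMIs and 1 in the test of oligodendrocytes against microglia. DESeq2 and the wider gate margin each gave 0 members called for DAM-gated microglia and 0 for the change of the IRM-gated difference with age, as did no replicate block and the stricter state gate for the latter. Leaving out 1 library gave 0 to 1 members called between ages in microglia, 0 to 1 in oligodendrocytes, 0 to 3 in oligodendrocytes without C4b or Serpina3n UMIs, 0 to 3 in microglia in neither state, 0 to 1 for oligodendrocytes against microglia, 0 to 1 for DAM-gated, 1 to 2 for IRM-gated, 1 to 2 for IRM-gated and not DAM-gated microglia and 0 to 1 for the change of the IRM-gated difference with age.

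Pairing by the batch number (replicate block) gave 1 member called between ages in oligodendrocytes (H2-D1, 2.21 on the log2 scale) with 57 genes against 4, and 1 in those without C4b or Serpina3n UMIs, and it changed no other call of a member between ages. The crossed replicate block in oligodendrocytes called 2 members and 191 genes.

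H2-T23 changed sign most often. Between ages in microglia it was -0.079 with the wider margin and -0.34 to 0.67 without 1 library, and in oligodendrocytes -0.47 to 0.82. In DAM-gated microglia it was -0.021 with no filter, -0.17 with the wider margin and -0.16 to 0.21 without 1 library. In microglia in neither state it was -0.26 to 1.00, and H2-K1 in oligodendrocytes without C4b or Serpina3n UMIs was -0.11 to 0.42. The causes were not tested. The stricter state gate could not be fitted for C4b- or Serpina3n-positive oligodendrocytes, and was not run.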

Other observations

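Cell types with few nuclei entered no comparison. The 13 gated T cells, all from the libraries of 6 months, held 7 UMIs of B2m, 14 of H2-D1, 10 of H2-K1 and 6 of Nlrc5 and none of Cd74, H2-Aa or H2-Ab1. The 20 endothelial cells held 9, 15 and 12 UMIs of B2m, H2-D1 and H2-K1 and 6 of H2-T23. The 27 border macrophages held 6, 9 and 10 UMIs of the same 3 class I genes, 1 of Cd74 and 1 of H2-Ab1. The 48 mural cells held 8 UMIs of H2-D1, 5 of H2-K1 and 0 of B2m, and the 25 fibroblasts 3 of H2-D1, 7 of H2-K1 and 3 of B2m.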
